A study of Mus musculus with 30 samples.

Results

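The step from hemogenic endothelium (HE) to blood progenitors was examined in wild-type (WT) cells. It was defined by the deposited samples alone, as progenitor cells against HE2 cells of the E14 mouse embryonic stem cell (ESC) line, each with 2 replicates. These are 4 of the 30 samples of the series, and 14525 of the 14685 genes in the table were tested. The series holds 5 populations (ESC, Flk1+, HE1, HE2 and progenitor cells) of WT, Sp1ΔDBD/ΔDBD and Sp3−/− E14 cells. Sp1ΔDBD/ΔDBD cells lack the DNA-binding domain of the transcription factor Sp1, and Sp3−/− cells lack Sp3. Both populations of the step came from the same kind of culture. Flk1+ cells were purified from embryoid bodies with an antibody, seeded into blast medium and sorted at day 2, after floating and adherent cells had been combined. HE2 cells were KIT+ CD41+ Tie2+ and progenitor cells were KIT+ CD41+ Tie2−, so the gates differed only in Tie2. HE1 cells, the population before HE2, were KIT+ CD41− Tie2+. No allele, transgene or added agent distinguished the 2 WT groups, and the cells stand for blood formation in culture, not in the embryo.

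Blood cells of the embryo arise from endothelial cells that lose their flat shape and their junctions and bud off as round cells, a process called the endothelial-to-hematopoietic transition. Endothelial identity is kept by factors such as the Sox17 family, ETS factors and Notch signalling, and blood identity is set up by RUNX1, GATA and PU.1 family factors. The first blood cells of the yolk sac are mostly primitive red cells, which carry embryonic globins, together with megakaryocytes and macrophages.

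The values are FPKM, fragments scaled to transcript length and sequencing depth, and levels can therefore be compared between genes. They had been quantile normalised by the authors, so that each of the 4 samples has a median of 7.19 FPKM and the highest gene stands at 12779 FPKM. The read depth behind a value is unknown, and the spread between replicates is the only measure of error. Where a pair of values is given for a population, replicate 1 comes first. Changes were tested with limma on log2(FPKM + 0.1), and a fold change is on this scale, which understates the change of genes with low values. In bulk RNA, fewer cells of a type and less RNA per cell cannot be told apart.

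The sort genes were examined first. Tek, which encodes Tie2 (chromosome 4 of GRCm38, 94739289 to 94874976), was at 85.1 and 90.2 FPKM in HE2 and at 8.67 and 5.95 FPKM in progenitor cells, a log2 difference of -3.59 that follows from the sort. Kit was at 36.9 and 58.5 FPKM in HE2 and 35.2 and 60.7 FPKM in progenitor cells. Itga2b, which encodes CD41, was at 84.6 and 147 FPKM in HE2 and 85.9 and 136 FPKM in progenitor cells. Neither passed the test (limma adjusted p = 0.999 and 0.995), and both had overlapping samples, so that RNA of the markers followed the gates. Of the factors that the series mutates, Sp1 was at 33.6 and 26.3 FPKM in HE2 and 30.4 and 28.5 FPKM in progenitor cells, and Sp3 at 37.7 and 30.9 and at 58.1 and 35.3 FPKM. Neither of these passed either (limma adjusted p = 0.999 and 0.177).

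One kind of difference between libraries did not follow the step. In a list of 20 genes of an epithelial-like cell type (keratins and others), the 9 members above 3 FPKM were all higher in replicate 1 than in replicate 2, by a median of 3.55 (log2) in HE2 and 2.92 in progenitor cells. Krt18 was at 116 and 8.59 FPKM in HE2 and at 69.9 and 25.6 FPKM in progenitor cells, and Krt8 at 100 and 5.56 and at 67.1 and 8.53 FPKM. The summed level of the list was 366 and 30.1 FPKM in HE2 and 269 and 53.1 FPKM in progenitor cells. Of the 8 smooth and cardiac muscle genes above 3 FPKM, 8 were higher in replicate 1 in HE2 (by a median of 1.92) and 6 in progenitor cells (1.03), with Acta2 at 257 and 34.8 FPKM in HE2 and 166 and 38.5 FPKM in progenitor cells. Of these lists, 0 of 20 and 1 of 22 genes (Des, higher) passed the test between HE2 and progenitor cells, and Des passed only without HE2 replicate 1 among the fits that left out a sample. The part of these genes in the results was not tested. Of the 20 epithelial-like genes 0 were at an unadjusted p below 0.05. Of 16 pluripotency genes, 0 passed by limma (2 at an unadjusted p below 0.05), and Pou5f1 stood at 0.178 and 0.225 FPKM in HE2 and 0.329 and 0.239 FPKM in progenitor cells.

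Between HE2 and progenitor cells 793 genes rose (5.46% of those tested) and 1130 fell (7.78%), 13.2% in all. With a fold change above 2 as well, 452 rose (3.11%) and 785 fell (5.4%). The median over all genes tested was 0.04. In 3673 genes both progenitor samples were above both HE2 samples (25.3%) and in 3058 both were below (21.1%). The tests rest on a fit of all 30 samples, which has 15 residual degrees of freedom, since 2 samples against 2 leave only 2. In a fit of the 4 samples alone limma called 0 genes, with 2412 at an unadjusted p below 0.05, and an exact permutation test of 2 against 2 cannot go below p = 0.33. A fit of the HE1, HE2 and progenitor samples of all genotypes called 506 genes higher and 939 lower. Leaving out HE2 replicate 1 left 453 higher and 815 lower genes, and leaving out progenitor replicate 1 left 487 and 820. Whichever of the 4 samples was left out, 227 of the 793 rises and 526 of the 1130 falls were called.

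**Figure D1:**
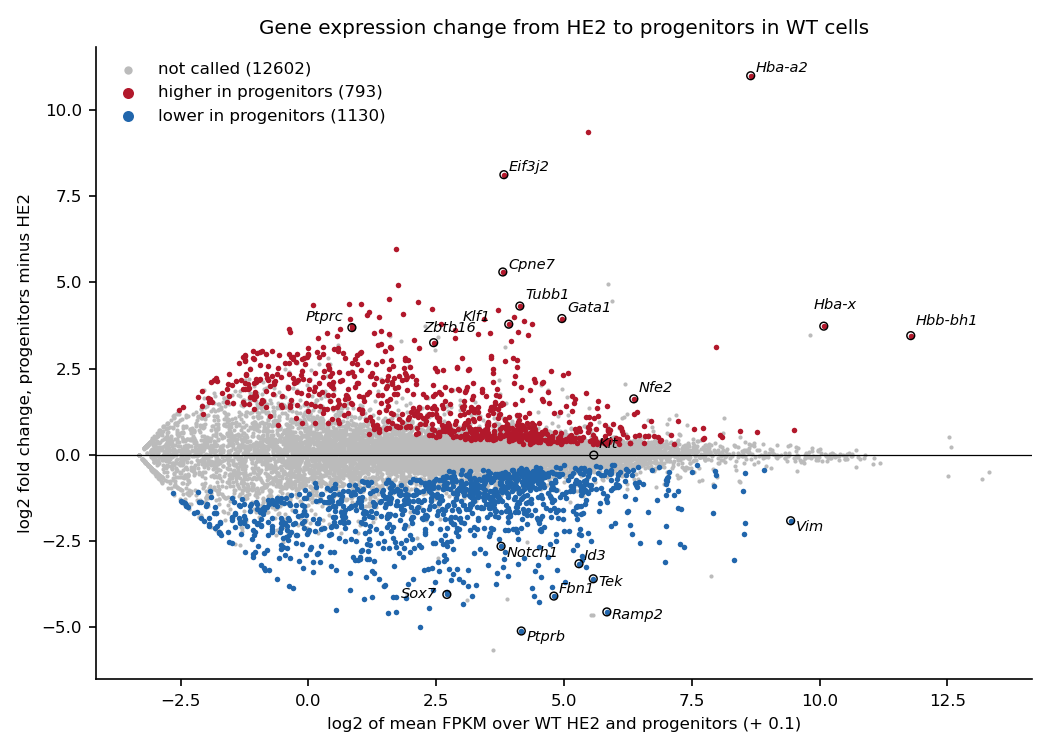
Log2 fold change of each gene tested (progenitor minus HE2, WT) against log2 of its mean FPKM over the 4 samples. Red points are the 793 genes higher in progenitor cells, blue points the 1130 lower ones and grey points the 12602 not called by limma. Hba-a2 reaches 10.98 and Ptprb -5.10, while Kit stays near 0.

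Of the 12 largest falls among genes above 3 FPKM in the higher population, 5 were on the endothelial lists (Ptprb, Clec14a, Ramp2, Oit3 and Emcn). The gene lists were chosen with earlier results of these data known. Counts on them, here and below, describe the lists and are no independent evidence. Ptprb, an endothelial phosphatase that binds Tie2 and VE-cadherin, fell from 40.1 and 29.1 FPKM to 1.69 and 0.456 FPKM (log2 change -5.10, standard error 0.48, limma adjusted p = 9.11e-07). Among the 12 largest falls were also Clec14a (-4.55) and Emcn (-4.12), surface proteins of endothelium, Ramp2 (-4.55), a subunit of the adrenomedullin receptor, and Bcl6b (-4.33), a repressor found in endothelium. The others were Aqp1, Klhl4, Mrc1, Oit3, Ushbp1, Pcdh12 and Sost. The 12 were taken only from called genes whose samples do not overlap, so in each both progenitor samples were below both HE2 samples by choice. The 12 largest rises, chosen in the same way, held the globins Hba-a2, Hbb-bs and Hbq1b and the red cell genes Kel, Ank1, Trim10 and Car1. They also held Cpne7, which was placed on the red cell membrane list, and Tubb1, which encodes the platelet tubulin. The others were Hp (haptoglobin), Clec4n, a lectin of myeloid cells, and Eif3j2.

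The rise of Eif3j2 belongs to a pair of near-identical genes whose values exchanged. Eif3j2 was listed at 0 and at 0.000732 FPKM, the lowest value of each HE2 sample, and at 33.1 and 23.2 FPKM in progenitor cells. Eif3j1, its copy (named after its values were seen), was at 31.0 and 16.9 FPKM in HE2 and at 0.323 and 0.387 FPKM in progenitor cells. Eif3j1 did not pass (limma adjusted p = 0.0559), and reads of the copies cannot be told apart with certainty. The call of Eif3j2 was lost whichever of the 4 samples was left out, with a limma adjusted p of 0.0679 to 0.105.

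**Figure D2:**
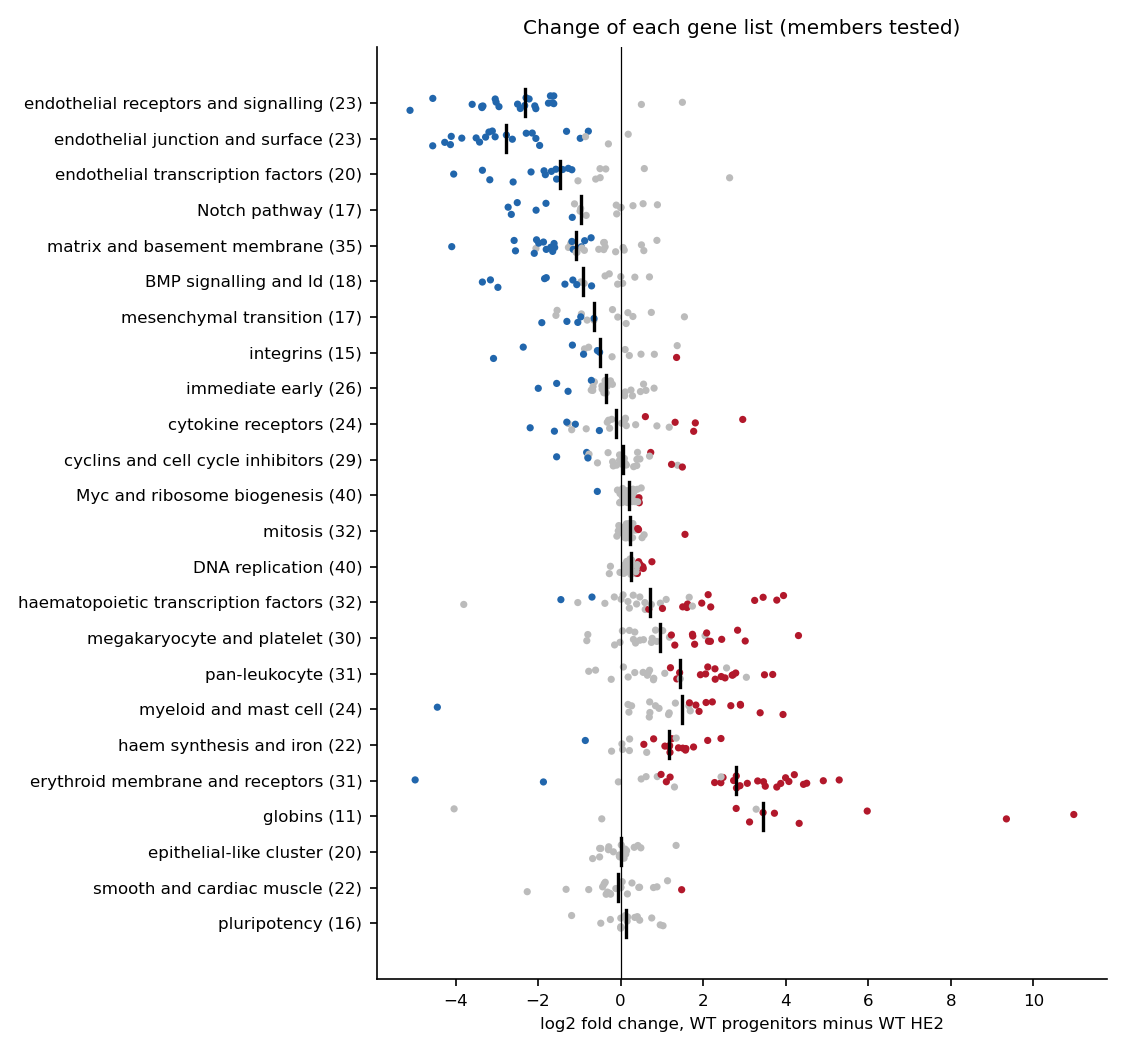
Log2 fold change (progenitor minus HE2, WT) of the tested members of each gene list, one point a gene, with the number tested in brackets and a bar at the list's median. Red and blue points are genes higher and lower by limma, grey points were not called. The endothelial lists lie left of 0 with medians of -2.32, -2.77 and -1.48, the erythroid lists right of it.

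Of 23 endothelial receptor and signalling genes tested, 21 fell and 0 rose, with a median of -2.32. Kdr, the VEGF receptor that marks the Flk1+ stage, fell from 127 and 174 FPKM to 38.4 and 58.3 FPKM (log2 change -1.65, standard error 0.26, limma adjusted p = 2.06e-04). Tie1, the partner of Tie2, was at 75.9 and 155 FPKM and then at 24.5 and 50.6 FPKM. Eng (endoglin), a co-receptor of the TGF-beta family, was at 64.4 and 65.7 FPKM in HE2 and 12.8 and 13.7 FPKM in progenitor cells. None of these genes had overlapping samples, but they were chosen with their values known. Over all genes tested, both progenitor samples were below both HE2 samples in 21.1%. Acvrl1, the receptor that works with endoglin, changed by -3.60, and Nos3, the endothelial nitric oxide synthase, by -3.04. Kdr, Tie1, Eng and Nos3 were named after their values were seen. The members that did not pass were Ednrb (7.10 and 6 FPKM in HE2, 6.12 and 14.1 FPKM in progenitor cells) and S1pr3, which was below 1 FPKM in both HE2 samples. Of the 21 falls, 16 were called whichever sample was left out.

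Of 23 endothelial junction and surface genes, 20 fell and 0 rose, with a median of -2.77. Cdh5 (VE-cadherin), the adhesion protein of endothelial junctions, fell from 221 and 231 FPKM to 28.2 and 24.3 FPKM (log2 change -3.11, standard error 0.30, limma adjusted p = 1.25e-06). Pecam1, also found on blood cells and platelets, fell less, from 145 and 179 FPKM to 59.2 and 71.1 FPKM (-1.31). Lyve1, a hyaluronan receptor of lymphatic and yolk sac endothelium, fell from 47.3 and 33.2 FPKM to 1.49 and 3.27 FPKM (-4.10). All 3 had samples that did not overlap, as did 21.1% of all genes tested in this direction. Cd34, a sialomucin shared by endothelium and blood stem cells, was at 248 and 353 FPKM in HE2 and 103 and 262 FPKM in progenitor cells and did not pass (limma adjusted p = 0.275). Podxl, a related sialomucin, was at 46.9 and 41.1 FPKM and at 55.2 and 45.1 FPKM. Of the 20 falls, 19 were called whichever sample was left out. Cdh5 and Pecam1 were named after their values were seen.

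Of 20 endothelial transcription factors, 13 fell and 0 rose, with a median of -1.48. The median was -1.66 to -1.34 when 1 of the 4 samples was left out, and some of the falls lost their call. Sox7, a factor of the Sox17 family that is expressed in hemogenic endothelium, fell from 13.8 and 10.4 FPKM to 1.17 and 0.325 FPKM (log2 change -4.04, standard error 0.45, limma adjusted p = 5.39e-06), and its relative Sox18 from 25.4 and 35.9 FPKM to 2.88 and 3.69 FPKM (-3.17). Epas1, a hypoxia factor, changed by -2.60, and the shear stress factors Klf2 and Klf4 by -2.17 and -1.86. The call of Klf2 was lost without HE2 replicate 2 (limma adjusted p = 0.0690) and without progenitor replicate 1 (0.0960). Of the ETS factors, Ets1 (-1.68) and Erg (-1.40), both named after their values were seen, fell. Fli1, which also works in megakaryocytes, was at 64.3 and 65.6 FPKM in HE2 and 36.4 and 50.1 FPKM in progenitor cells and did not pass (limma adjusted p = 0.219).

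Of the 17 Notch pathway genes, 6 fell, 0 rose and 11 did not pass, with a median of -0.97. Among the receptors, Notch1 (chromosome 2, 26457903 to 26516663) fell from 20.8 and 26.1 FPKM to 3.71 and 3.55 FPKM (log2 change -2.65, standard error 0.20, limma adjusted p = 1.23e-07) and Notch4, the endothelial receptor, from 2.31 and 3.08 FPKM to 0.412 and 0.367 FPKM (-2.50). Notch2 was at 10.5 and 10.9 FPKM and then at 11.1 and 10.3 FPKM, and Notch3 at 7.08 and 6.89 FPKM and then at 6.89 and 6.10 FPKM. Neither of these passed and both had overlapping samples, unlike Notch1 and Notch4.

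Of the ligands, Dll4 fell from 1.06 and 0.441 FPKM to 0.108 and 0.0771 FPKM (log2 change -2.05). Jag1 (4.17 and 4.43 FPKM, then 4.85 and 8.21 FPKM), Jag2 (4.18 and 4.24 FPKM, then 2.17 and 2 FPKM) and Dll1, which was below 1 FPKM in all 4 samples, did not pass. Target genes moved in part. Hey2 (-2.73), Nrarp (-1.81) and Hey1 (-1.17) fell, and the call of Hey1 was lost without HE2 replicate 2 (limma adjusted p = 0.248) or progenitor replicate 1 (0.247). Hes1 differed more between replicates (7.81 and 40.5 FPKM in HE2, 4.94 and 16.6 FPKM in progenitor cells) than between populations. Rbpj, the DNA-binding partner of Notch, was at 15.4 and 13.6 FPKM and at 14.8 and 14.5 FPKM, and its co-activator Maml1 at 11.6 and 13.9 FPKM and at 11.2 and 12.6 FPKM. Lfng, Mfng and Dtx1 did not pass. With a filter of a mean above 3 FPKM in a population, which leaves out the low members, 3 of the list fell.

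Of 35 matrix and basement membrane genes, 17 fell and 0 rose (median -1.08). Fbn1 (fibrillin) fell from 54.1 and 49.3 FPKM to 6.41 and 1.32 FPKM, a log2 change of -4.09. The basement membrane collagens Col4a1 (224 and 305 FPKM, then 51.8 and 36.8 FPKM) and Col4a2 (146 and 158 FPKM, then 32.6 and 20.6 FPKM) fell by 2.58 and 2.55 on the log2 scale. Without HE2 replicate 1, or without progenitor replicate 2, 11 matrix genes fell. Col1a2, a fibroblast collagen, was at 17.1 and 5.68 FPKM and at 24.3 and 13.7 FPKM and did not pass.

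In the mesenchymal list 5 of 17 genes fell and 0 rose (median -0.65), 3 of them without HE2 replicate 1 or HE2 replicate 2. Vim, the intermediate filament vimentin and the most abundant gene of the list (chromosome 2, 13573927 to 13582826), fell from 1057 and 1125 FPKM to 265 and 318 FPKM (log2 change -1.91, standard error 0.18, limma adjusted p = 9.55e-07), and Cdh2 (N-cadherin) from 17.7 and 12.7 FPKM to 7.52 and 4.81 FPKM. Zeb2, which also acts in blood, was at 40.0 and 29.2 FPKM and at 40.8 and 34.5 FPKM and did not pass. Of 18 BMP signalling and Id genes, 9 fell and 0 rose (median -0.92), 6 of them without HE2 replicate 1. Id3, an inhibitor of basic helix-loop-helix factors, was at 71.9 and 68.6 FPKM in HE2 and 9.59 and 6.34 FPKM in progenitor cells (-3.15), and the ligand Bmp6 at 10.2 and 6.82 and at 1.35 and 0.373 FPKM (-3.35). Id1 changed by -1.84, with a limma adjusted p of 0.00369 that went to 0.0643 without HE2 replicate 1.

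Of 15 integrins, 6 fell (40%) and 1 rose (6.67%), against 7.78% and 5.46% of all genes tested. The median was -0.51, and -0.52 to -0.06 when 1 of the 4 samples was left out. Without HE2 replicate 1 some of the falls lost their call. Itga4, the alpha chain used by blood progenitors, rose from 6.93 and 6.81 FPKM to 19.0 and 16.5 FPKM, a log2 change of 1.36. Itga1, a collagen receptor, fell from 13.1 and 12.1 FPKM to 2 and 2.82 FPKM, and Itga5, the fibronectin receptor, from 27.9 and 26.1 FPKM to 16.1 and 12.9 FPKM. Of 26 immediate early genes, which respond within minutes to stress or growth factors, 4 fell (Atf3, Ctgf, Klf6 and Klf10). This is 15.4%, against 7.78% of all genes tested. Without HE2 replicate 2 the count was 0, and without progenitor replicate 1 it was 1.

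Blood genes moved the other way. Of 32 hematopoietic transcription factors 12 rose (37.5%) and 2 fell (6.25%), with a median of 0.71. Of all genes tested, 5.46% rose and 7.78% fell, so the share of falls was not above that of all genes. Gata1, the master factor of red cells and megakaryocytes (chromosome X, 7959260 to 7978071), rose from 6.30 and 2.01 FPKM to 69.9 and 45.9 FPKM (log2 change 3.95, standard error 0.83, limma adjusted p = 0.00280). Nfe2, which drives platelet and globin genes, rose from 42.5 and 37.7 FPKM to 107 and 142 FPKM (1.62, limma adjusted p = 9.41e-05). Zbtb16 (PLZF), a zinc finger factor of early blood cells, rose from 1.25 and 0.672 FPKM to 11.6 and 7.97 FPKM (3.25). Cebpa, a myeloid factor, was below 1 FPKM in HE2 (0.0395 and 0.286 FPKM) and at 3.49 and 1.70 FPKM in progenitor cells (3.45). These 4 were called whichever sample was left out.

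The other 8 rises each lost their call without at least 1 of the samples, and without HE2 replicate 1 the list held 6 rises. Klf1, the red cell factor that binds the beta-globin promoter (chromosome 8, 84901928 to 84905291), went from 3.96 and 0.591 FPKM to 43.5 and 12.1 FPKM, a change of 3.78 whose limma adjusted p of 0.00374 went to 0.0847 without HE2 replicate 2. Spi1, which encodes PU.1 and directs myeloid cells, went from 5.32 and 8.93 FPKM to 20.9 and 35.5 FPKM (1.97, limma adjusted p = 0.0131, and 0.138 without HE2 replicate 1). Gfi1b, a repressor that silences endothelial genes, went from 17.1 and 19.3 FPKM to 55.0 and 56.2 FPKM (1.61, limma adjusted p = 0.00614, and 0.0525 without HE2 replicate 1). The same held for Ikzf1, Lmo2, Cebpb, Irf8 and Stat5a. The paralog of Gfi1b, Gfi1, fell from 3.87 and 5.75 FPKM to 1.47 and 1.89 FPKM (-1.45), and Gata2, which precedes Gata1, from 9.87 and 15 FPKM to 7.65 and 7.35 FPKM (-0.69). Both calls were lost without HE2 replicate 2, where Gfi1 changed by -1.17 and Gata2 by -0.39. They were also lost without progenitor replicate 1 (-1.28 and -0.72). The call of Gata2 was lost without progenitor replicate 2 too (-0.67).

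Several factors of hemogenic endothelium did not pass between these populations. Runx1, the factor without which the transition fails (chromosome 16, 92601466 to 92826149), was at 24.6 and 9.80 FPKM in HE2 and 46.1 and 52.9 FPKM in progenitor cells, a difference of 1.66 with a limma adjusted p of 0.136. Myb was at 31.8 and 38.2 FPKM and at 64.9 and 71.5 FPKM (0.96, limma adjusted p = 0.141), and Tal1 at 52.4 and 66.3 FPKM and at 84.7 and 93.8 FPKM (0.60, limma adjusted p = 0.319). In all 3 both progenitor samples were above both HE2 samples, as they were in 25.3% of all genes tested. Lyl1, Ldb1, Tcf3, Etv6, Hhex, Meis1 and Bcl11a had overlapping samples. Mecom, a stem cell factor, was at 9.08 and 1.03 FPKM in HE2 and 0.433 and 0.000832 FPKM in progenitor cells, and the spread between its HE2 samples left a limma adjusted p of 0.0785.

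**Figure D3:**
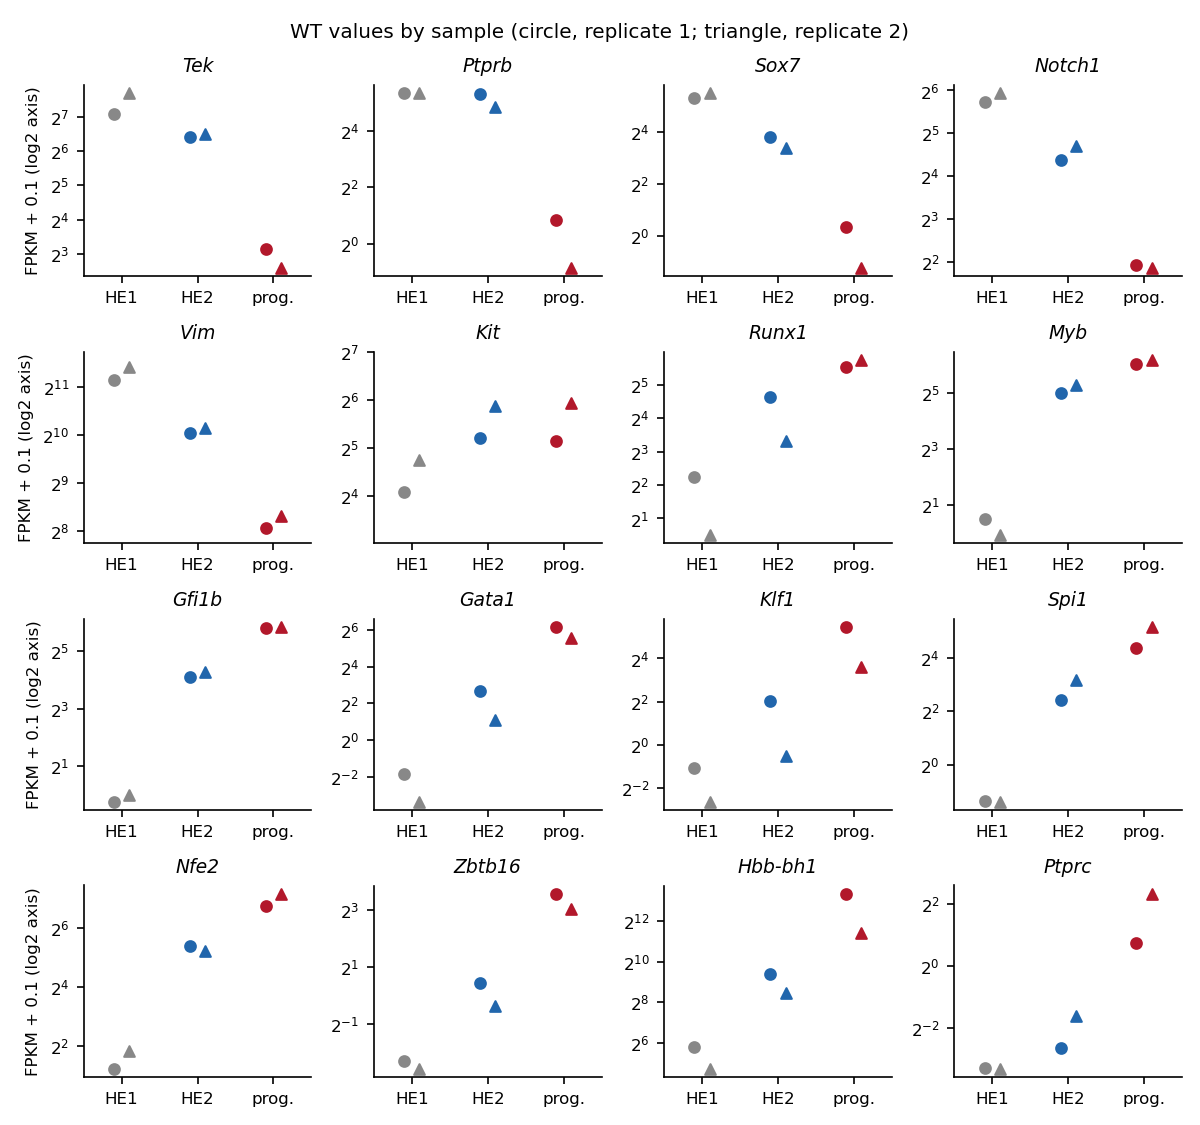
FPKM + 0.1 (log2 axis) of 16 genes in the WT HE1, HE2 and progenitor (prog.) samples; circles are replicate 1 and triangles replicate 2. Sox7 and Notch1 are lower in HE2 than in HE1 and lower again in progenitor cells, Kit overlaps between HE2 and progenitor cells, and Gata1 goes from 6.30 and 2.01 FPKM in HE2 to 69.9 and 45.9 FPKM in progenitor cells.

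Of 11 globin genes 8 rose, 0 fell and 3 did not pass, with a median of 3.45. The embryonic beta-like globin Hbb-bh1 (chromosome 7, 103841637 to 103843164) rose from 677 and 349 FPKM to 10321 and 2745 FPKM (log2 change 3.45, standard error 0.64, limma adjusted p = 9.40e-04). It took the second rank of all genes in progenitor replicate 1 and the sixth in progenitor replicate 2, and quantile normalisation gives each rank a set value. The embryonic alpha-like globin Hba-x (chromosome 11, 32276400 to 32278116) rose from 231 and 85.8 FPKM to 2745 and 1270 FPKM (3.73), and Hbb-y, the other embryonic beta-like globin, from 59.7 and 44.6 FPKM to 455 and 447 FPKM (3.12). The globins summed to 0.233% and 0.118% of all FPKM in HE2 and to 3.38% and 1.20% in progenitor cells, so the progenitor replicates differed from each other by more than the HE2 ones.

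The other globins differed in their level in HE2. Hba-a2 went from 0.249 and 0.336 FPKM to 977 and 631 FPKM (log2 change 10.98, standard error 1.25, limma adjusted p = 7.15e-06), whereas Hba-a1, which is nearly identical to it, was at 31.5 and 24.5 FPKM and at 23.4 and 17.5 FPKM. Reads of the pair cannot be assigned with certainty, and the same holds for Hbb-bs, Hbb-bt, Hbb-b1 and Hbb-b2 and for Hbq1a and Hbq1b. Hbb-bs was at 0 and 0.0818 FPKM in HE2 and 96.9 and 79.4 FPKM in progenitor cells. Hbq1b, a theta-like globin, stood at the lowest value of both HE2 samples (0 and 0.000732 FPKM) and at 7.53 and 5.13 FPKM in progenitor cells (limma adjusted p = 6.70e-07), with no fold change to give, and Hbq1a likewise at these values and at 2.05 and 1.78 FPKM. Hbb-b1 (10.3 and 3.95 FPKM, then 0.231 and 0.373 FPKM) and Hbb-bt (0 and 0.0904 FPKM, then 13.4 and 0.0334 FPKM) did not pass. The call of Hbb-b2 was lost whichever sample was left out, with a limma adjusted p of 0.0530 to 0.108.

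Haem synthesis rose with the globins. Of 22 genes of haem and iron handling 14 rose and 1 fell (median 1.18). The median was 0.91 to 1.23 when 1 of the 4 samples was left out, and some of the rises lost their call. Alas2, the rate-limiting enzyme of haem synthesis in red cells, rose from 11 and 5.96 FPKM to 55.0 and 35.5 FPKM (log2 change 2.43, standard error 0.45, limma adjusted p = 8.79e-04). Later enzymes of the pathway rose less, with 1.07 for Urod, 1.58 for Cpox and 1.51 for Fech, which inserts the iron. Slc25a37 (mitoferrin), the mitochondrial iron importer, rose from 4.19 and 4.18 FPKM to 28.0 and 12.1 FPKM (2.11), and Tfrc, the transferrin receptor, from 32.9 and 28.9 FPKM to 102 and 65.1 FPKM (1.40). Hmox1, which breaks haem down, fell from 24.2 and 24.7 FPKM to 10.6 and 17.0 FPKM (-0.86), a call lost without progenitor replicate 1 (limma adjusted p = 0.202). The ferritin chains did not pass, with Fth1 at 725 and 523 FPKM and at 782 and 517 FPKM. Urod, Fech and Tfrc were named after their values were seen.

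Of 31 red cell membrane and receptor genes 23 rose and 2 fell (median 2.80), and 17 of the rises were called whichever sample was left out. Epor, the erythropoietin receptor, rose from 3.34 and 2.41 FPKM to 24.7 and 16.8 FPKM (log2 change 2.80, standard error 0.40, limma adjusted p = 8.09e-05). Epor was named after its values were seen. Kel, a blood group endopeptidase, went from 0.207 and 0.0992 FPKM to 6.54 and 4.68 FPKM (4.51), and Ank1, which anchors the red cell skeleton to the membrane, from 0.620 and 0.0613 FPKM to 12.5 and 4.18 FPKM (4.43). The members that fell do not belong to red cells alone. Aqp1, the water channel of endothelium and red cells, fell from 8.81 and 8.62 FPKM to 0.401 and 0.0562 FPKM (-4.98), and Cd59a, a complement inhibitor of many cell types, from 9.80 and 14.1 FPKM to 2.81 and 3.52 FPKM (-1.87). The erythroid rises differed between replicates: 22 of 26 members above 3 FPKM were higher in progenitor replicate 1, by a median of 0.60 on the log2 scale.

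The promoters of the red cell genes were read for letters bound by GATA factors, because Gata1 was among the largest rises of the transcription factors. Sequences of 250 bases before to 50 bases after the gene start came from RefSeq (GRCm38.p6). Of the 45 genes of the globin, haem and red cell lists that rose, 30 matched and have 36 promoters, and 15 of these (41.7%) hold AGATAA or TGATAA on either strand, against 10.6% of the 13965 promoters of all genes tested and 18.6% of all 32851 promoters in the table. The share was 18.8% among 32 promoters of the leukocyte, myeloid and platelet genes that rose and 10.5% among 38 promoters of the endothelial genes that fell. Other letters were counted in the same windows. CCNCNCCC, read by Krueppel-like factors and Sp1, was in 63.9%, 65.6% and 81.6% of these 3 sets in turn and in 67.7% of the promoters of genes tested, and ETS letters (AGGAAG or CCGGAA) in 44.4%, 59.4% and 50% against 50.4%. TGTGGT, read by RUNX factors, was in 16.7%, 18.8% and 10.5% against 12.6%, and E-box letters (CAGCTG or CAGATG) in 25%, 37.5% and 31.6% against 25.4%. A match is a description of the letters in the window and not a bound site.

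Shown here are 4 promoters that hold the GATA letters, in capitals. They are 1 each of a membrane protein, a red cell TRIM protein, the haem enzyme and the red cell factor named above. That of Klf1, which is on the hematopoietic factor list, is not among the 36 promoters counted above, of which 15 hold the letters. The 4 promoters are written 5′ to 3′ on the strand of the gene. In Kel (chr6:41704276-41704575, minus strand) the capitals begin 56 and 19 bases before the start, in Trim10 (chr17:36869324-36869623, plus strand) 163, in Alas2 (chrX:150547167-150547466, plus strand) 86 and in Klf1 (chr8:84901732-84902031, plus strand) 80. TTATCT and TTATCA are the same letters read on the other strand.
Kel: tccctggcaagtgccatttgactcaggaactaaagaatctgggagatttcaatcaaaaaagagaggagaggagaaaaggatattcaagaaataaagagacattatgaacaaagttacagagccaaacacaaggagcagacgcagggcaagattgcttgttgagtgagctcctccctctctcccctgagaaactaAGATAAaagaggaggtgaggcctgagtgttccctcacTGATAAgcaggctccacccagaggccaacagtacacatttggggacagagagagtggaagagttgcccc
Trim10: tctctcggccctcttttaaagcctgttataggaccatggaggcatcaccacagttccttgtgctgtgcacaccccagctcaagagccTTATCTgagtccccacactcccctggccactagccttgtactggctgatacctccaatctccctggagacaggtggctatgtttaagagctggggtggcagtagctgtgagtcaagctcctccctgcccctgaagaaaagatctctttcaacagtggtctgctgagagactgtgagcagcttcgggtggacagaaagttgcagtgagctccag
Alas2: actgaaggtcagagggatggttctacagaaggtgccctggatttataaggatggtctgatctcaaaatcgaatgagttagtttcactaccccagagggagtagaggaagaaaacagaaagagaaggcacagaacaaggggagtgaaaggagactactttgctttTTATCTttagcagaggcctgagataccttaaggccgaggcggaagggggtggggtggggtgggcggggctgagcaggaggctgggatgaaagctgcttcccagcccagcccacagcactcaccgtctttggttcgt
Klf1: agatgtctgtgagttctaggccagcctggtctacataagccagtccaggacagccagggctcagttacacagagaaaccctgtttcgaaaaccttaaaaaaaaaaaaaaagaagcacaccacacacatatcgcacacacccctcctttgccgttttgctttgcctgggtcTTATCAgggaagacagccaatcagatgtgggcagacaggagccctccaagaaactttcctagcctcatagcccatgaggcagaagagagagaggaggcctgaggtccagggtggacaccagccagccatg
Kel, Alas2 and Klf1 have their values above, and Trim10 went from 0.328 and 0.000732 FPKM in HE2 to 8.17 and 4.62 FPKM in progenitor cells (log2 change 4.91, limma adjusted p = 6.58e-06).

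Genes of other blood lineages were also among the rises. Of 30 megakaryocyte and platelet genes 12 rose and 0 fell (median 0.95), 7 of them without progenitor replicate 2. Tubb1 rose from 2.12 and 1.17 FPKM to 30.9 and 35.8 FPKM (log2 change 4.31, standard error 0.61, limma adjusted p = 6.59e-05), and Gp5, a subunit of the receptor for von Willebrand factor, from 0.496 and 0.563 FPKM to 2.92 and 3.80 FPKM (2.45). Genes of the list that were already high in HE2 did not pass, such as Itgb3, the partner of CD41, at 111 and 127 FPKM and at 205 and 233 FPKM, and Plek at 53.6 and 72.4 FPKM and at 85.4 and 187 FPKM. Pf4, the platelet chemokine (named after its values were seen), was at 1.35 and 0.733 FPKM and at 6.12 and 3.20 FPKM (limma adjusted p = 0.0879).

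Of 31 genes shared by white blood cells 15 rose and 0 fell (median 1.43). The median was 1.08 to 1.7 when 1 of the 4 samples was left out, and some of the rises lost their call. Ptprc (CD45), the common leukocyte phosphatase, rose from 0.0583 and 0.227 FPKM to 1.6 and 4.93 FPKM (log2 change 3.69, standard error 0.40, limma adjusted p = 4.81e-06). Coro1a, an actin regulator of leukocytes, rose from 2.27 and 4.84 FPKM to 13.9 and 36.3 FPKM (2.72), and Rac2, the leukocyte Rac GTPase, from 0.288 and 0.477 FPKM to 3.42 and 2.94 FPKM (2.79). Of 24 myeloid and mast cell genes 10 rose and 1 fell (median 1.49), and 4 rose among those with a mean above 3 FPKM in a population. Itgam (CD11b), an integrin of myeloid cells, rose from 0.0496 and 0.121 FPKM to 1.40 and 5.07 FPKM (3.94), and Csf2rb, the chain shared by the IL-3 and GM-CSF receptors, from 4.56 and 7.63 FPKM to 18.3 and 34.4 FPKM (2.07). Mpo, the granule peroxidase, was at 15.3 and 24.7 FPKM and at 28.7 and 66.4 FPKM, and Lyz2 at 7.56 and 15.4 FPKM and at 6.80 and 22.6 FPKM; neither passed. The gene that fell, Mrc1, is a mannose receptor of macrophages and sinusoidal endothelium, and it went from 10.1 and 9.40 FPKM to 0.467 and 0.261 FPKM (-4.44).

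The replicates differed in lists of blood lineages and in other lists too. Of 40 Myc and ribosome biogenesis genes, 39 were higher in progenitor replicate 1. Of 22 immediate early genes above 3 FPKM, 19 were higher in progenitor replicate 2. All genes tested above 3 FPKM were divided, with 4933 higher in progenitor replicate 2 and 4996 in replicate 1. Whereas erythroid genes were higher in progenitor replicate 1, 22 of 24 megakaryocyte genes above 3 FPKM were higher in replicate 2, by a median of 0.44 (log2), as were 21 of 27 leukocyte genes (0.69) and 12 of 14 myeloid genes (1.11). In HE2, 21 of 26 red cell membrane genes were higher in replicate 1 (by a median of 0.48) and 23 of 27 leukocyte genes in replicate 2 (0.37), while the myeloid genes were divided, with 8 of 14 higher in replicate 1. Within each replicate number the step kept its direction in these lists. The median of the red cell membrane genes above 3 FPKM was 3.27 from HE2 replicate 1 to progenitor replicate 1 and 2.69 for the replicates 2, that of the myeloid genes 0.72 and 1.52, and that of the endothelial receptors -2.38 and -2.32.

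Cytokine receptors and their signalling genes divided. Of 24 genes 5 rose (20.8%) and 5 fell (20.8%), against 5.46% and 7.78% of all genes tested. The median was -0.10, and -0.41 to 0.22 when 1 of the 4 samples was left out. Calls in both directions were lost in these fits. Il6st, the gp130 chain, fell from 24.0 and 23.0 FPKM to 10.7 and 11.2 FPKM (log2 change -1.10, standard error 0.12, limma adjusted p = 6.57e-06), and its partner Lifr from 51.5 and 25.0 FPKM to 10.4 and 5.81 FPKM (-2.19). Csf2rb2, the mouse IL-3 receptor beta chain, rose from 1.38 and 1.44 FPKM to 5.23 and 4.89 FPKM (1.77). Jak2, the kinase of the erythropoietin receptor, was at 17.5 and 15.2 FPKM in HE2 and 25.0 and 24.6 FPKM in progenitor cells (0.60, limma adjusted p = 0.0298), and Jak1, the kinase of gp130, at 50 and 43.6 FPKM and at 30.8 and 34.7 FPKM (-0.51, limma adjusted p = 0.0428). The calls of Jak2 and Jak1 were lost whichever sample was left out, up to a limma adjusted p of 0.168 and 0.250.

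Of 40 DNA replication genes 9 rose and 0 fell, with a median of 0.25 against 0.04 over all genes tested, but the count was 2 without HE2 replicate 1, 2 without progenitor replicate 1 and 1 without progenitor replicate 2, and 4 in the fit of HE1, HE2 and progenitor samples. With samples centred on the median of genes with a mean above 10 FPKM in every group it was 4, and 12 once GC content and length were corrected for. Cdt1, which licenses origins of replication, was at 30.6 and 43.7 FPKM and at 59.2 and 65.0 FPKM (log2 change 0.76, limma adjusted p = 0.00826, and 0.159 without HE2 replicate 1). Pcna was at 197 and 205 FPKM and at 205 and 241 FPKM and did not pass. Of 32 mitosis genes 3 rose (9.38%) and 0 fell, against 5.46% and 7.78% of all genes tested. Among the rises was Cdc25b, a phosphatase that starts mitosis, from 3.81 and 4.22 FPKM to 14.4 and 10 FPKM (1.56). Without progenitor replicate 2 the count of mitosis genes was 1, and it was 6 once GC content and length were corrected for. Of 29 cyclins and inhibitors 3 rose (10.3%) and 3 fell (10.3%). Ccnd1 (cyclin D1) fell from 16.8 and 14.1 FPKM to 5.27 and 5.10 FPKM (-1.55), while Ccnd3 was at 115 and 132 FPKM and at 126 and 130 FPKM and did not pass. Without HE2 replicate 1 the list held 0 rises and 1 fall, and without HE2 replicate 2 or progenitor replicate 1 it held 1 rise. Of 40 genes of Myc and ribosome biogenesis 2 rose (5%) and 1 fell (2.5%), shares below those of all genes tested. The median of the list was 0.20, and 0.03 to 0.36 when 1 of the 4 samples was left out. The list held 10 rises once GC content and length were corrected for. Of 83 cytosolic ribosomal protein genes 0 passed by limma (1 at an unadjusted p below 0.05).

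The step can be set beside the one before it, from HE1 to HE2, which shares the HE2 samples. Between HE1 and HE2 1703 genes rose (11.7%) and 1478 fell (10.2%). The lists differed in where their calls lay. Endothelial receptors had 14 falls of 23 between HE1 and HE2 and 21 between HE2 and progenitor cells, and junction and surface genes 9 falls and then 20. Leukocyte genes had 23 rises of 31 between HE1 and HE2 and then 15, hematopoietic factors 17 rises of 32 and then 12, and DNA replication genes 34 rises of 40 and then 9. Red cell membrane genes had 14 rises of 31 and then 23. Myb and Plek belong to the genes with an early rise, with log2 changes of 4.91 and 5.95 between HE1 and HE2 and 0.96 and 1.02 after it. The size of the change in a step was not compared between the steps by a test.

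**Figure D4:**
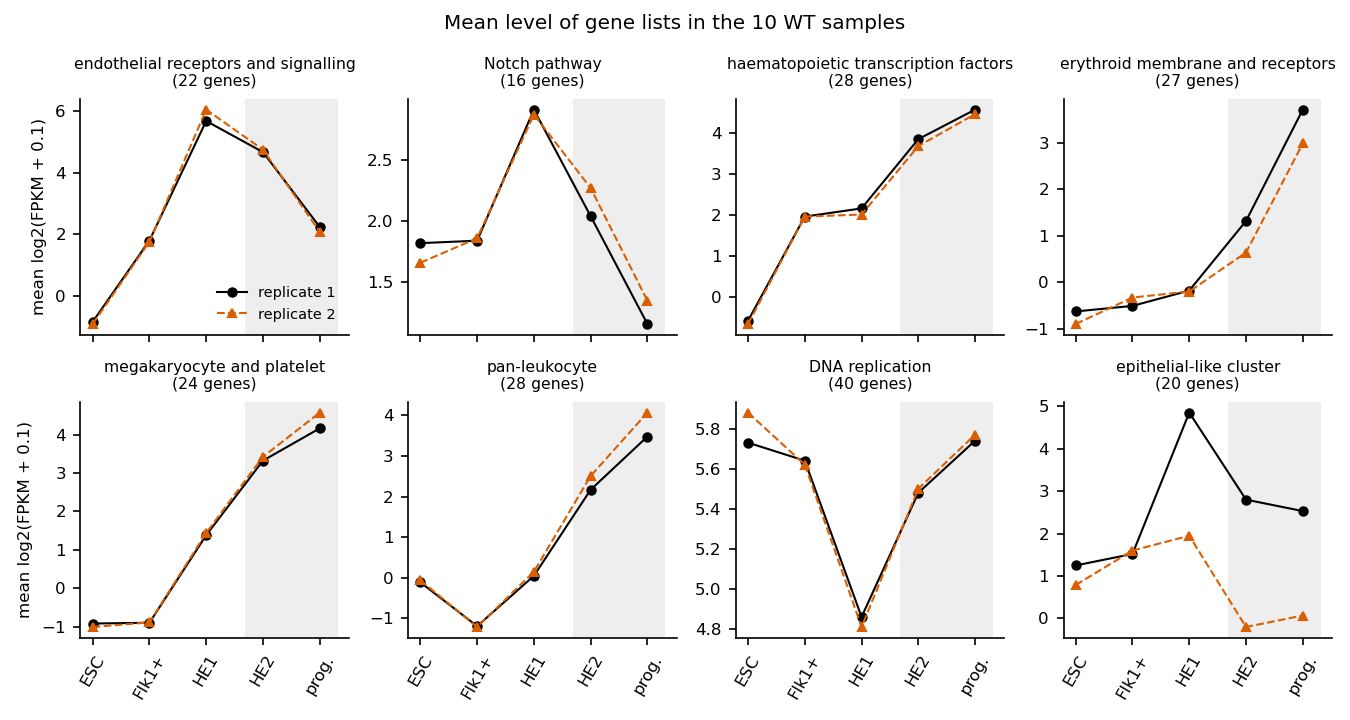
Mean log2(FPKM + 0.1) of 8 gene lists in the 10 WT samples, over the members above 3 FPKM in at least 1 WT population (number in brackets); circles and full lines are replicate 1, triangles and broken lines replicate 2, and HE2 and progenitor (prog.) samples are shaded. Endothelial receptors go from 4.67 and 4.75 in HE2 to 2.24 and 2.08 in progenitor cells, red cell genes from 1.32 and 0.64 to 3.72 and 2.99, and the epithelial-like list separates the replicates in HE1, HE2 and progenitor cells.

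The same step was taken in the mutant cells, whose HE2 and progenitor samples are not shared with it. The fit of all samples gives a gene the same estimate of spread in every genotype, however. A gene with a small spread is thus called more easily in each genotype, and the overlaps of calls are not independent replication. The signs and sizes of the changes come from separate samples. From HE2 to progenitor cells 977 genes rose (6.73%) and 1322 fell (9.10%) in Sp1ΔDBD/ΔDBD cells, and 430 rose (2.96%) and 844 fell (5.81%) in Sp3−/− cells, 15.8% and 8.77% of the genes tested in all. Of the 793 genes that rose in WT, 761 had the same sign in Sp1ΔDBD/ΔDBD cells (96.0%, against 54.9% of all genes tested with that sign), and 472 were called (59.5% of the WT rises and 48.3% of the Sp1ΔDBD/ΔDBD ones). In Sp3−/− cells 754 had the same sign (95.1%, against 59.3%) and 243 were called (30.6% of the WT rises and 56.5% of the Sp3−/− ones). Of the 1130 genes that fell in WT, 866 were called in Sp1ΔDBD/ΔDBD cells (76.6% of the WT falls and 65.5% of the mutant ones) and 636 in Sp3−/− cells (56.3% and 75.4%). Called in the opposite direction were 0 genes in either mutant. In all 3 genotypes 217 genes rose and 591 fell.

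The median change of the 793 WT rises was 1.23 in WT, 0.96 in Sp1ΔDBD/ΔDBD and 0.58 in Sp3−/− cells, and that of the 1130 falls -1.36, -1.26 and -0.97. The WT samples chose these genes, so smaller values in the mutants are no test of a difference. Cdh5 changed by -3.40 in Sp1ΔDBD/ΔDBD cells (247 and 134 FPKM in HE2, 18.9 and 15.7 FPKM in progenitor cells) and by -2.82 in Sp3−/− cells (165 and 168, then 20.9 and 26.4 FPKM). Notch1 changed by -3.95 and -2.91. Gata1 changed by 3.81 in Sp1ΔDBD/ΔDBD cells (4.59 and 4.55 FPKM, then 68.1 and 62.6 FPKM), and was at 8.60 and 5.47 and then at 40.1 and 45.2 FPKM in Sp3−/− cells, where it did not pass (limma adjusted p = 0.0567). Hbb-bh1 changed by 4.22 in Sp1ΔDBD/ΔDBD cells and was at 325 and 474 FPKM and then at 1111 and 2128 FPKM in Sp3−/− cells (limma adjusted p = 0.0626).

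Tested directly, the step in Sp1ΔDBD/ΔDBD cells differed from the WT step in 3 genes by limma (0.0207% of those tested, 751 at an unadjusted p below 0.05), and the step in Sp3−/− cells in 4 genes (0.0275%, with 1 higher or 0.00688% and 3 lower, 836 at an unadjusted p below 0.05). In simulated data the first of these tests found 60.5% of the genes whose WT step was changed by 2 on the log2 scale. A difference of that size can therefore be missed. The simulated samples varied independently and only 200 genes were changed, whereas real same-numbered samples deviated together, so the real share may differ. Both tests use the same 4 WT samples. The counts were 29 and 32 when WT progenitor replicate 2 was left out. The genes were Mgmt, Lyve1 and Serpina3b for Sp1ΔDBD/ΔDBD and Hbq1a, Rbm18, Lyve1 and Batf3 for Sp3−/− cells. Lyve1 stood apart in WT HE2, with 47.3 and 33.2 FPKM, against 3.59 and 2.87 FPKM in Sp1ΔDBD/ΔDBD HE2 and 2.78 and 2.99 FPKM in Sp3−/− HE2. In progenitor cells it was between 1.44 and 3.27 FPKM in all 6 samples.

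**Figure D5:**
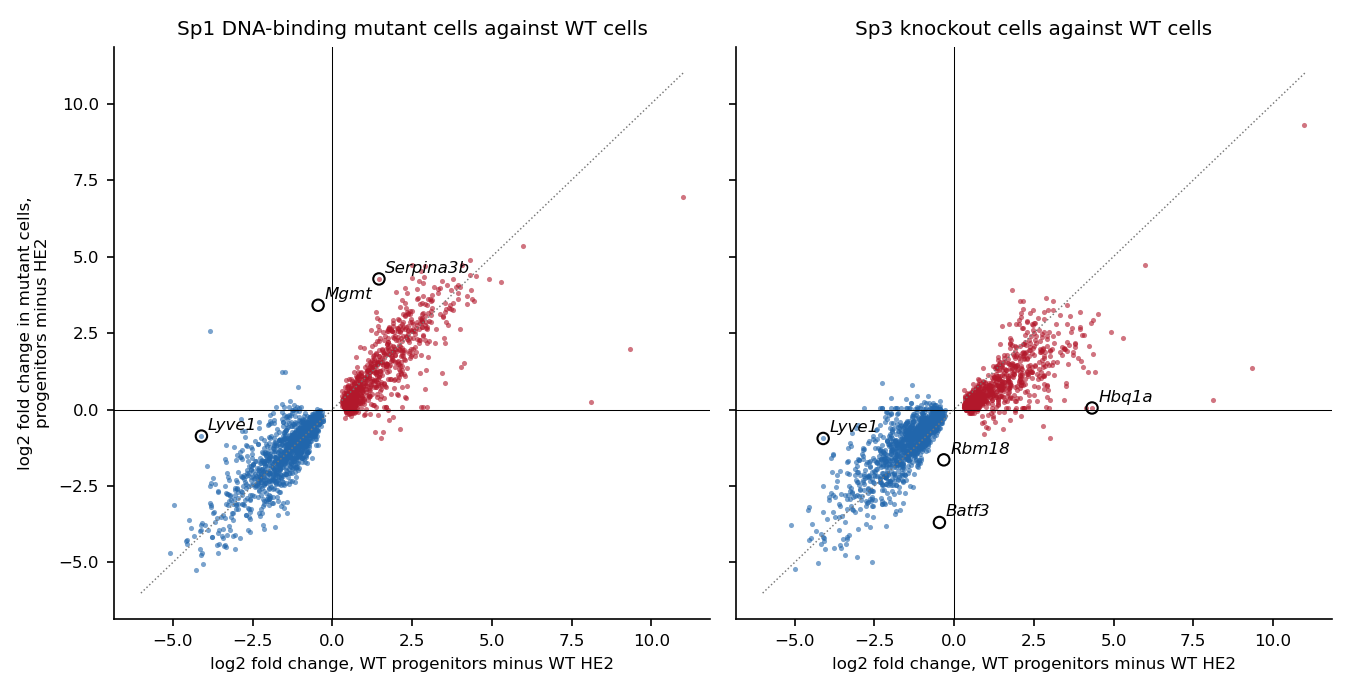
Log2 fold change from HE2 to progenitor cells in Sp1ΔDBD/ΔDBD cells (left) and Sp3−/− cells (right) against that in WT cells, for the 793 WT rises (red) and the 1130 WT falls (blue); the dotted line marks equal change. Circles mark the 3 and 4 genes whose change differed between genotypes by limma, among them Lyve1 (-4.10 in WT, -0.87 and -0.95 in the mutants).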

How the data were processed

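RNA-seq libraries of total RNA were made by the authors from 2 biological replicates per population, per the methods, whereas the labels say only that libraries were made in duplicate, so p-values measure the spread between these samples. The authors trimmed the paired-end reads, aligned them to mm10 with HISAT2 2.1.0, calculated FPKM per gene with StringTie 1.3.3 (versions from the submitters' processing notes), removed genes that never exceeded 1 FPKM, and applied quantile normalisation across the series. The deposited FPKM values have exactly the same value at 12742 of 14685 ranks in all 30 samples and differ by at most 0.192 FPKM at the others. The table holds no counts, so depth is unknown. All 30 columns were matched to samples by name. Genes above 1 FPKM in a sample after normalisation (14525) were tested on log2(FPKM + 0.1) in R 4.3.3 with limma 3.58.1, as 15 group means over 30 samples with moderated variance (15 residual and 3.92 prior degrees of freedom) and an intensity trend. P-values are two-sided, with Benjamini-Hochberg adjustment within a comparison and a threshold of 0.05.

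Named are the sort genes, Sp1 and Sp3, the 12 largest rises and falls (called, above 3 FPKM in the higher group, no overlap of samples, no Gm or Rik symbols), all members of the hematopoietic factor, globin and Notch lists, up to 5 rises, 5 falls and the 4 highest members not passing in each other list, and the 6 genes with the smallest adjusted p for each difference between genotypes. Members and gene lists were chosen with earlier results of these data known. Symbols were matched to GENCODE M21 (14554 of 14685), and promoters came from RefSeq. The fit was first tested on simulated data with known changes. Alternatives were another pseudocount, other filters, other sample sets, a replicate block, centring, a correction for GC content and length, no intensity trend, and leaving out each replicate. Python 3.11.15, pandas 2.3.3 and matplotlib 3.10.9 were used. A few list members are not reported here by name.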

Additional observations from a re-analysis of the deposited data

Results flagged for a closer look

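The change from HE2 to progenitor cells differed between genotypes in 7 tests by limma, which is 3 genes for Sp1ΔDBD/ΔDBD against WT and 4 for Sp3−/− against WT. The WT samples are shared by both sets. The fitted differences of Mgmt, Serpina3b, Hbq1a and Batf3 rest on groups at the lowest value of their samples, so their size depends on the pseudocount. In fits of only the samples compared, Mgmt, Lyve1, Serpina3b, Rbm18 and Batf3 did not pass. In the fit of HE1, HE2 and progenitor samples Lyve1 (both differences), Rbm18, Serpina3b and Batf3 did not pass, and with a pseudocount of 1 Mgmt and Batf3 did not. No explanation was tested.

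Mgmt, a DNA repair enzyme, differed by 3.85 between the Sp1ΔDBD/ΔDBD and the WT step (standard error 0.497, limma adjusted p = 0.00403). It was at 16.5 and 13.7 FPKM in WT HE2 and 10.2 and 11.8 FPKM in WT progenitor cells, but at the lowest value of both Sp1ΔDBD/ΔDBD HE2 samples and at 1.22 and 0.779 FPKM in Sp1ΔDBD/ΔDBD progenitor cells. Lyve1 differed by 3.23 in the Sp1ΔDBD/ΔDBD step (limma adjusted p = 0.00428) and by 3.16 in the Sp3−/− step (0.00404), through its high level in WT HE2. Without WT HE2 replicate 1 the second value had a limma adjusted p of 0.0503. Hbq1a, a theta-like globin, differed by -4.28 in the Sp3−/− step (limma adjusted p = 0.00404), with 2.05 and 1.78 FPKM in WT progenitor cells and 0.0234 and 0.00572 FPKM in Sp3−/− progenitor cells. It has a near-identical copy, Hbq1b. Its difference passed in all 17 alternatives. Rbm18, an RNA-binding protein, differed by -1.32 (limma adjusted p = 0.00404), with 12.7 and 12.7 FPKM in WT and 5.23 and 5.92 FPKM in Sp3−/− progenitor cells.

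Serpina3b differed by 2.81 in the Sp1ΔDBD/ΔDBD step (limma adjusted p = 0.0463), with 0.405 and 0.715 FPKM in WT and 1.86 and 1.85 FPKM in Sp1ΔDBD/ΔDBD progenitor cells, and its call held in 1 of 8 fits that left out a sample. Batf3, a factor of dendritic cells, differed by -3.23 in the Sp3−/− step (limma adjusted p = 0.0393), and its call held in 2 of 8. It was at 1.45 and 2.68 FPKM in WT HE2 and 1.66 and 1.14 FPKM in Sp3−/− HE2, and in progenitor cells at 1.19 and 1.67 FPKM in WT and 0.0234 and 0.00572 FPKM in Sp3−/−.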

How the results depend on the processing

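Depth is unknown. In fits of only the 4 samples of a step, 0 genes rose, 0 fell and 0 passed a fold of 2 in WT, 90 were called in the Sp1ΔDBD/ΔDBD step and 1192 in the Sp3−/− step, against 1274 with all samples. With HE1, HE2 and progenitor samples only, 506 genes rose and 2 differed in the Sp3−/− step. Among genes with a mean above 3 FPKM, 791 passed a fold of 2, 813 the Sp3−/− step and 2 its difference from WT. With a pseudocount of 1 and all genes tested, that difference had 11 genes, against 4. The difference of the Sp1ΔDBD/ΔDBD step had 6 genes with the GC and length correction and 6 without the intensity trend. Leaving out a replicate gave 453 to 761 rises, 815 to 971 falls, 979 to 1108 genes past a fold of 2, 1503 to 2363 genes for the Sp1ΔDBD/ΔDBD step, 597 to 986 for the Sp3−/− step, and 2 to 29 and 3 to 32 for the differences from WT. Of 131 named genes called, 79 kept the call in all 4 of these fits for the WT step, and 0 reversed in any alternative. Of the named genes not called, 50 had the other sign in at least 1 of them.

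Same-numbered HE2 and progenitor samples deviated together (Pearson's r 0.45 across 9586 genes in WT, 0.572 across 9596 in Sp1ΔDBD/ΔDBD and 0.136 across 9536 in Sp3−/− cells), but 2 numbers do not establish a pairing. With the replicate block 1368 genes rose and 1577 fell, all 793 rises and 1130 falls among them, 1478 passed a fold of 2, 3269 and 2048 were called in the mutant steps, and 17 and 11 differed from WT. With the GC and length correction and the replicate block the counts were 1792, 1745, 1478, 3716, 2330, 14 and 14. Rises on the DNA replication, mitosis and Myc and ribosome biogenesis lists went from 9, 3 and 2 to 17, 9 and 6 with the block and to 19, 13 and 11 with both.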
